A study of Mus musculus with 6 samples.

Results

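The mitochondrial ribosome translates the messages of the mitochondrial genome inside the organelle. Its proteins are encoded in the nucleus, and the genes of its large subunit carry Mrpl symbols and those of its small subunit Mrps symbols. The array named 76 such genes among its 27029 gene names, 47 of the large and 29 of the small subunit. They were chosen by symbol alone, as the gene names of non-control probes that begin with Mrpl or Mrps and a digit. Each gene was read by its brightest probe, the one with the highest mean over the 6 arrays. All 76 genes were well above background on all 6 arrays, and all 76 entered the test, among 14220 genes tested.

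The cells were inducible regulatory T cells (iTreg), made in culture from naive splenic CD4+ T cells of 6-week-old C57BL/6 mice. The naive cells were sorted as CD25-, Foxp3gfp- and CD62L-high in both groups. Control mice carried a floxed miR-31 allele (miR-31 fl/fl), and cKO mice carried the same allele with CD4-Cre, which deletes the microRNA in T cells from the thymic stage onwards. Only cKO mice carried Cre, so that the deletion and the presence of Cre cannot be told apart here. The cultures of both groups received plate-bound anti-CD3 (5 μg/ml), soluble anti-CD28 (2 μg/ml), TGF-β1 (5 ng/ml) and, by the sample labels, IL-2 (40 ng/ml), and were collected on day 4. RNA from 3 cKO and 3 control mice was read on 1 one-colour array per mouse. The comparison asked which transcripts differ in iTreg cells that lack miR-31, and here how the genes of the mitochondrial ribosome stood in it.

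The large subunit forms peptide bonds and sits on the inner mitochondrial membrane, where most of its products are inserted into the respiratory chain. The small subunit decodes the message. Some of the proteins have bacterial homologues, and others are particular to mitochondria. T cells enlarge their mitochondria and step up mitochondrial translation after activation.

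A level below is the log2 signal of a probe minus the 75th percentile of its array, and a log2 fold change is the mean of the 3 cKO arrays minus the mean of the 3 control arrays. Levels of different probes were not compared. The 75th percentile of the processed signal lay between 987 and 1148 on the 6 arrays, 49.3% to 57.7% of spots were well above background, and 0 spots were saturated. The 3 cKO arrays and control array 1 lay on 1 slide and control arrays 2 and 3 on another. With 3 arrays a group, precision is limited by their number. On cKO array 3, a gene's level was the lowest of the 6 for 36.2% of all genes tested and the highest for 27.8%. Control array 3 was the lowest for 18.6% and the highest for 28.7%, and the other 4 arrays were each the lowest for 8.39% to 13.3%. In bulk RNA, fewer cells of a type and less RNA per cell cannot be told apart. T cell markers were read well above background on all arrays. Of the 8, 4 (Cd4, Cd3g, Cd3d and Cd28) had an unadjusted p under 0.05 in limma with a higher level in cKO, and Cd3e with a lower one. Over all genes tested, 12.1% had such a p with a higher level and 11.5% with a lower one. The smallest adjusted p of the T cell markers was 0.17 in limma. Foxp3, which defines regulatory T cells, was at 3.16, 3.12 and 2.45 on cKO arrays 1 to 3 and at 3.42, 3.42 and 3.76 on the control arrays (log2 fold change −0.62, SE 0.22, adjusted p = 0.19 in limma). It went against most of its list, since 5 of the 8 regulatory T cell markers lay above 0 and 3 below. Their median was 0.23, with a range from −0.77 (Nrp1) to 0.94 (Ctla4). In limma 1 of them had an unadjusted p under 0.05 with a higher level and 2 with a lower one, and the smallest adjusted p was 0.14. Of the markers of other cells, 1 of 6 B cell, 1 of 7 myeloid, 1 of 6 erythroid and 0 of 3 natural killer cell genes on the array passed the filter on dim probes. Ms4a1, Alas2 and Ncr1 were among those that did not. The mean level of a list's tested genes lay between −1.14 and 0.07 in cKO and between −1.69 and −0.92 in control for B cells (Cd79b), and between −1.25 and −0.02 in cKO and between −4.27 and −2.06 in control for erythroid cells (Hbb-b1). For myeloid cells (Csf1r) it lay between −4.53 and −3.84 in cKO and between −4.78 and −4.09 in control. The CD8 T cell genes Cd8a and Cd8b1 had a mean level of 0.46 to 0.95 in cKO and of 0.96 to 1.37 in control. The part of these cells in the results was not tested.

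The sequences just before the start of transcription are shown for the 6 members with the largest lower values in cKO and the 6 with the largest higher values, except Mrps28 and Mrpl4, for which no promoter was found in the table used here. They are given because most members lay on the same side of control. RefSeq promoters of build GRCm38.p6 were found by symbol for 67 of the 76 members, 73 promoters in all, and the last 120 bases before the start are printed 5′ to 3′ on the strand of the gene. Capitals mark matches on either strand to the letters of 4 motifs, namely GCGCA and GCGC with any 1 base between them (nuclear respiratory factor 1, NRF1), CCGGAAG (ETS factors such as GABP), AAGATGGC (YY1) and CACGTG (the E-box bound by Myc). No letters of one motif overlapped another in the stretches shown.
Mrps2 (chr2:28467946-28468065, plus strand): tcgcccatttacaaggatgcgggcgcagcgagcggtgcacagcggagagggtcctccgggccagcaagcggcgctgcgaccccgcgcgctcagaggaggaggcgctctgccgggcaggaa
Mrpl50 (chr4:49521084-49521203, minus strand): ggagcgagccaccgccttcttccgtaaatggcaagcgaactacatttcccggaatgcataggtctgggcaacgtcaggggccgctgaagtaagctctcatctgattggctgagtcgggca
Mrpl36 (chr13:73330889-73331008, plus strand): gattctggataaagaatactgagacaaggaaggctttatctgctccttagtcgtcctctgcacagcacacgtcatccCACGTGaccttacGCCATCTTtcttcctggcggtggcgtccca
Mrpl41 (chr2:24975099-24975218, minus strand): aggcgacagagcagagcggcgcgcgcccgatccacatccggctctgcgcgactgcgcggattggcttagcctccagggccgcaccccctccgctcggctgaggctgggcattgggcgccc
Mrpl12 (chr11:120484517-120484636, plus strand): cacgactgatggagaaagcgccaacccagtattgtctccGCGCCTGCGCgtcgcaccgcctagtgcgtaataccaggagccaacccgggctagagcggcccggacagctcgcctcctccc
Mrpl45 (chr11:97315596-97315715, plus strand): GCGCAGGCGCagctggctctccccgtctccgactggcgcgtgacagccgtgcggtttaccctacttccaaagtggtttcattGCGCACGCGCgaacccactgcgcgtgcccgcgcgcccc
Mrpl14 (chr17:45686229-45686348, plus strand): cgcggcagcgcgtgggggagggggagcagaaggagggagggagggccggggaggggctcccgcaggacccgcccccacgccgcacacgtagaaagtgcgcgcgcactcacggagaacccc
Mrpl9 (chr3:94443216-94443335, plus strand): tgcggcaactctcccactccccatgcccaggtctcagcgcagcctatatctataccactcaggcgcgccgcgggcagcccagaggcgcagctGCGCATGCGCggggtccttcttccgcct
Mrpl32 (chr13:14613038-14613157, minus strand): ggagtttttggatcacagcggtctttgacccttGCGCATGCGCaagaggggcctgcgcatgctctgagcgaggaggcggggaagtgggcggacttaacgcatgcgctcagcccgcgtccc
Mrpl1 (chr5:96209995-96210114, plus strand): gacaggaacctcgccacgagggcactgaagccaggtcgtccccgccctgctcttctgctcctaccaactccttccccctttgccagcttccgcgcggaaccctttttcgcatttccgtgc
Over the 250 bases before the start, the NRF1 letters were found in 9 of 67 members (13.4%), against 4.23% of the 27025 genes with a promoter. The ETS letters were found in 17 members (25.4%) against 7.83% of all genes. YY1 letters were found in 4 members (5.97%) against 1.83%, and the E-box in 5 (7.46%) against 6.86%. The ETS letters were as common in 60 genes of the cytosolic ribosome (26.7%), where the NRF1 letters were found in 0. In 67 genes of the respiratory chain the ETS letters were found in 17.9% and the NRF1 letters in 19.4%. A match is a description of the letters and not a bound site. Of the 10 stretches shown, 5 held no match to any of the 4 motifs (Mrps2, Mrpl50, Mrpl41, Mrpl14 and Mrpl1). Mrpl45 held 2 NRF1 matches, Mrpl9, Mrpl32 and Mrpl12 held 1 each, and Mrpl36 held an E-box and the YY1 letters. Among members with a promoter, the NRF1 letters occurred in 4 of 9 with a log2 fold change above 0 and in 5 of 58 with one below 0, a split seen after the values were known and given without a test. The ETS letters occurred in 1 of 9 and in 16 of 58.

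Most mitochondrial ribosomal protein genes lay a little lower in cKO than in control iTreg cells, and no single gene passed the adjusted test. The log2 fold change was below 0 for 65 of the 76 genes (85.5%) and above 0 for 11, while 55.0% of all genes tested lay below 0. The median over the members was −0.22, beside −0.05 over all genes tested. The values ran from −0.57 for Mrps2 to 0.20 for Mrpl45, and the middle of the members lay between −0.35 and −0.08 (lower and upper quartile). The largest difference was 1.48-fold, and 36 members lay more than 1.2-fold lower while 0 lay more than 1.2-fold higher.

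**Figure D1:**
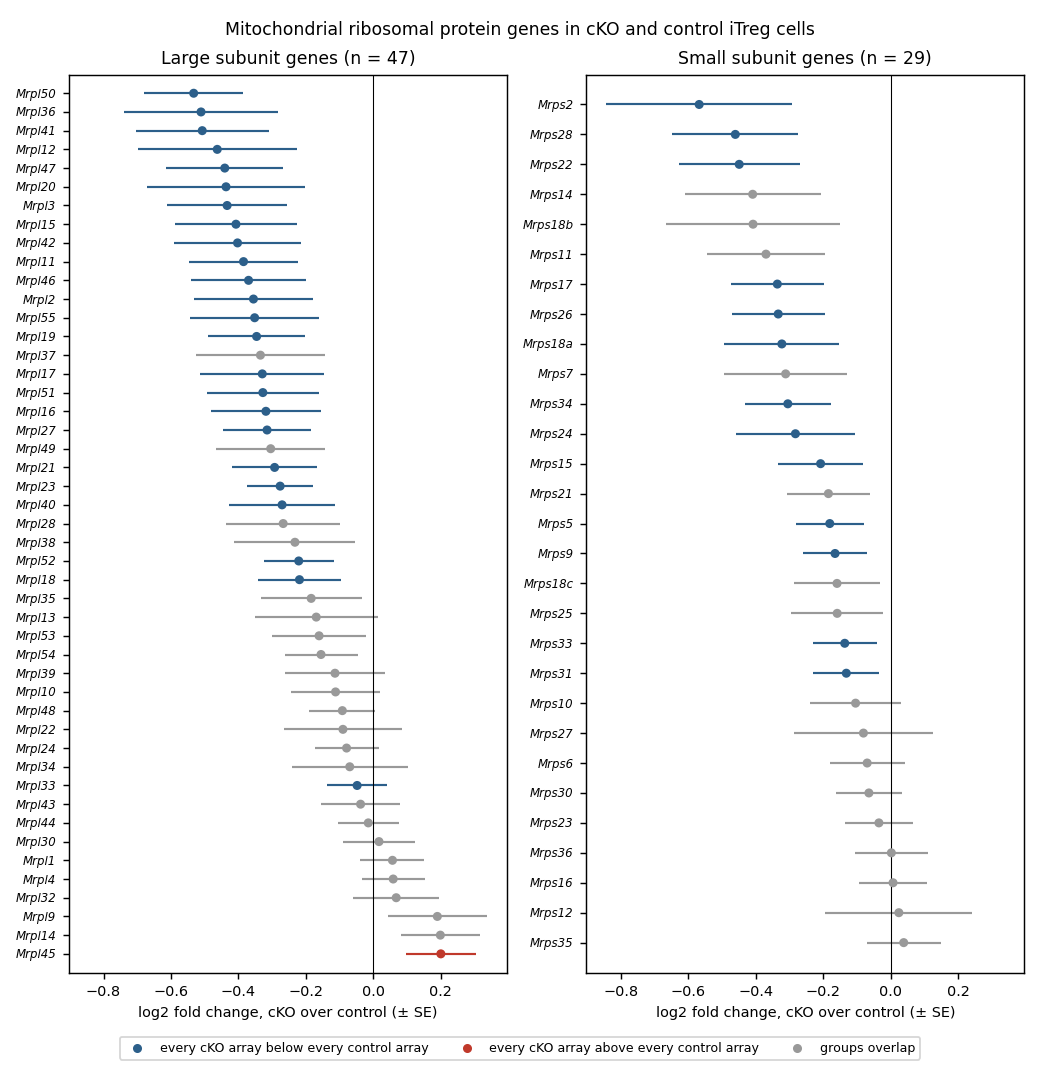
Log2 fold change of each mitochondrial ribosomal protein gene, cKO over control, as a point with its standard error from limma as a bar, for 47 large subunit genes on the left and 29 small subunit genes on the right. Most points lie below 0, 37 genes are blue because their 3 cKO levels were all under the 3 control levels, and Mrpl45 alone is red.

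Of the members, 0 had an adjusted p under 0.05 in limma, a threshold that 0.281% of all genes tested passed. At the brightest probes the smallest adjusted p in limma was 0.147, for Mrpl50. Without adjustment, limma gave a p under 0.05 to 7 members with a lower level in cKO (Mrpl3, Mrpl23, Mrpl41, Mrpl47, Mrpl50, Mrps22 and Mrps28; 9.21%, against 11.5% of all genes tested) and to 0 with a higher one (against 12.1%). The share of lower calls was thus near the background. Counted by overlap, all 3 cKO levels were under all 3 control levels for 37 members (48.7%), against 21.4% of all genes tested. They were over all 3 control levels for 1 member, Mrpl45 (1.32%), against 16.7%. The control arrays of the members were close to each other, with a median SD of 0.05, against 0.11 over all genes tested. Among the cKO arrays the median SD was 0.24 for the members and 0.23 over all genes tested.

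The cKO arrays did not lie equally low. The mean of the members' deviations from their own 6-array means was 0.04, −0.04 and −0.33 on cKO arrays 1, 2 and 3, and 0.09, 0.10 and 0.14 on control arrays 1, 2 and 3. All 3 cKO arrays lay below all 3 control arrays on this mean, cKO arrays 1 and 2 by a small margin and cKO array 3 by a wide one. Over all genes tested the same mean lay between −0.03 and 0.02 on every array. The lowest level of the 6 arrays was on cKO array 3 for 59 of the 76 members (77.6%, against 36.2% of all genes tested). Without cKO array 3 the median log2 fold change of the members was −0.12, beside −0.03 over all genes tested, and 59 members lay below 0. On the other 5 arrays the groups still did not overlap for 37 members with lower cKO levels (48.7%, against 25.2% of all genes tested), the same genes, since leaving out an array cannot make separate groups overlap.

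**Figure D2:**
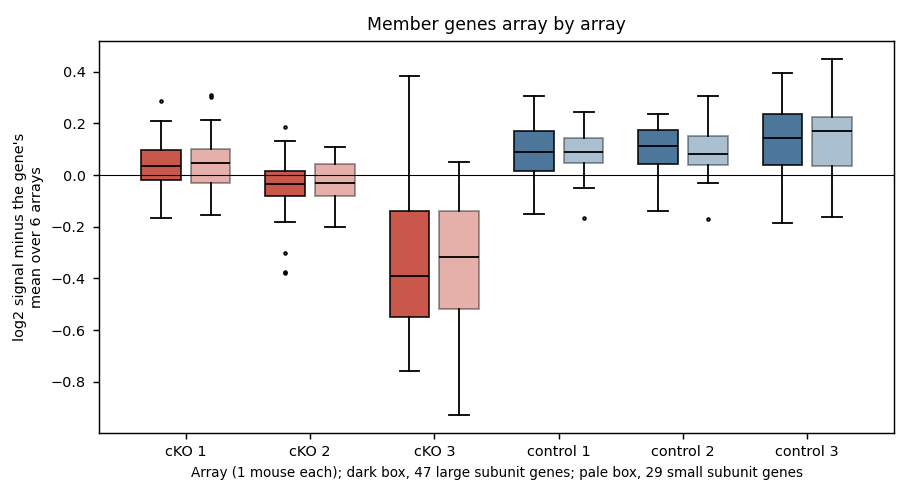
Level of each member gene minus its own mean over the 6 arrays (y axis, log2 scale) for every array (x axis), with dark boxes for 47 large subunit and pale boxes for 29 small subunit genes, red for cKO and blue for control. Boxes span the quartiles with the median as a line, whiskers reach 1.5 times the box length and dots lie beyond. Array cKO 3 lies lowest in both subunits, at medians of −0.39 and −0.32.

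Within the slide that held both groups, the cKO mean lay below control array 1 for 66 of 76 members, with a median difference of −0.22, the same as over all arrays. Over all genes tested that median was −0.003. When limma was given the slide as a block, 0 members had an unadjusted p under 0.05 in either direction. Of all genes tested, 2.69% then had such a p with a lower cKO level and 5.08% with a higher one.

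The large and the small subunit lay lower by similar amounts. The median log2 fold change was −0.27 over the 47 large subunit genes, with 40 below 0, and −0.18 over the 29 small subunit genes, with 25 below 0. The means were −0.22 and −0.21, a difference of −0.004, and the per-array difference between the subunits had an SD of 0.016 between replicates. The groups did not overlap, with cKO lower, for 24 large (51.1%) and 13 small subunit genes (44.8%), against 21.4% of all genes tested. The 46 members that the origin list used here gives as bacterial homologues had a median of −0.24. The other 30 members had one of −0.19. Structures of the ribosome place 3 genes with small subunit names elsewhere. Of these, Mrps18a had a log2 fold change of −0.32, Mrps30, found in the large subunit, one of −0.06, and Mrps36, a subunit of the 2-oxoglutarate dehydrogenase complex, one of 0.00.

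Among the large subunit genes, Mrpl50, a protein particular to mitochondrial ribosomes, had the smallest p of all members at their brightest probes. Its probe (NM_178603) lies on chromosome 4 from 49525602 to 49525661 of build mm9, as the array's annotation gives it. It was at 1.74, 1.34 and 1.28 on cKO arrays 1 to 3 and at 1.99, 1.94 and 2.03 on the control arrays, and the groups did not overlap. The log2 fold change was −0.53 (SE 0.15, adjusted p = 0.147 in limma), and it stayed between −0.68 and −0.45 with any 1 array left out. On this gene cKO array 2 was nearly as low as cKO array 3.

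The stalk of the large subunit, which recruits the elongation factors, is built of Mrpl10, Mrpl11 and Mrpl12. Mrpl12, which also binds the mitochondrial RNA polymerase, was at 4.44, 4.17 and 3.54 on the cKO arrays and at 4.48, 4.46 and 4.61 on the control arrays. The groups were separate, but cKO array 1 lay just below control array 2. Its log2 fold change was −0.46 (SE 0.24, adjusted p = 0.279). Mrpl11 was at 4.14, 4.16 and 3.65 in cKO and at 4.33, 4.37 and 4.42 in control, with separate groups and a log2 fold change of −0.39. Mrpl10, the base of the stalk, had overlapping groups and a log2 fold change of −0.11.

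Of the 5 proteins listed for the peptidyl transferase centre and the core of the large subunit, 4 had separate groups with cKO lower (80.0%). The share was 48.7% over all members and 21.4% over all genes tested. With so few genes, such counts do not tell 1 site from another. Mrpl3 was at 3.41, 3.34 and 2.81 in cKO and at 3.58, 3.63 and 3.66 in control (log2 fold change −0.43, SE 0.18, adjusted p = 0.216 in limma). Mrpl2, Mrpl16 and Mrpl27 had log2 fold changes of −0.36, −0.32 and −0.32. Mrpl4 differed in direction, at 2.30, 2.22 and 2.18 in cKO and 2.15, 2.17 and 2.20 in control, with overlapping groups.

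A list of 5 genes for proteins of the exit tunnel and the membrane anchor had a median log2 fold change of −0.08, beside −0.22 over all members. The list is a selection and does not hold every protein of that region, so the value describes these genes only. Mrpl23, at the tunnel exit, was at 4.99, 4.93 and 4.84 in cKO and at 5.13, 5.20 and 5.25 in control, a small difference with little spread in either group (log2 fold change −0.28, SE 0.10, adjusted p = 0.188 in limma). Mrpl22 and Mrpl24 had log2 fold changes of −0.09 and −0.08 with overlapping groups. Mrpl44 was nearly level, at 1.94, 2.01 and 1.98 in cKO and at 2.00, 2.00 and 1.97 in control. Mrpl45, which anchors the ribosome to the inner membrane, was the single member whose brightest probe had every cKO array above every control array. It was at 3.56, 3.51 and 3.68 in cKO and at 3.33, 3.35 and 3.47 in control, with a log2 fold change of 0.20 (SE 0.10, adjusted p = 0.281 in limma).

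Mrpl41, a large subunit protein particular to mitochondria, was at 4.37, 4.12 and 3.66 in cKO and at 4.47, 4.50 and 4.69 in control. The groups were separate, and the log2 fold change was −0.51 (SE 0.20, adjusted p = 0.207 in limma). Mrpl42 lay lower in the same manner, with a log2 fold change of −0.40 and separate groups. Mrpl37, Mrpl38 and Mrpl48 had −0.33, −0.23 and −0.09, and their groups overlapped. Mrpl36, one of the smallest ribosomal proteins, was at 3.82, 3.66 and 2.99 in cKO and at 3.97, 3.93 and 4.12 in control, with a log2 fold change of −0.51 (SE 0.23, adjusted p = 0.237). For Mrpl47 the probes of the gene disagreed. The brightest had a log2 fold change of −0.44 (adjusted p = 0.209 in limma). Another tested probe, of a different transcript annotation, had one of 1.52 (adjusted p = 0.0966 in limma), with every cKO array above every control array. In all, 31 members had another tested probe, and for 5 of them it lay on the opposite side of 0.

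**Figure D3:**
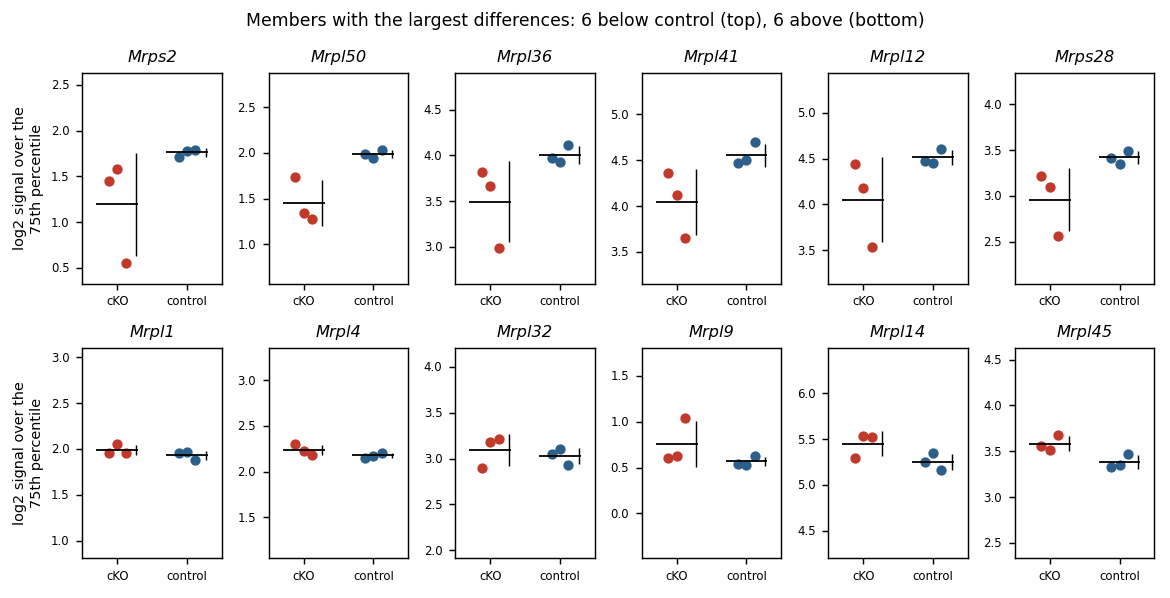
Levels of the 6 members with the largest lower values in cKO (top row) and the 6 with the largest higher values (bottom row). Each point is 1 array, red for cKO and blue for control, with array 1 on the left of each group, the horizontal line is the mean of 3 arrays and the vertical line its SD, and all panels span the same range on the log2 scale. In the top row cKO array 3 is the lowest point of every panel, and in the bottom row only Mrpl45 has separate groups.

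In the small subunit, Mrps2 had the largest difference of all members and also the widest spread. It was at 1.45, 1.58 and 0.55 on cKO arrays 1 to 3 and at 1.71, 1.78 and 1.79 on the control arrays, with separate groups. The log2 fold change of −0.57 (SE 0.28, adjusted p = 0.263 in limma) was −0.25 without cKO array 3. Without that array Mrpl36, Mrpl41, Mrpl12 and Mrps28 stood at −0.26, −0.31, −0.21 and −0.26. Listed with Mrps2 were other small subunit members with bacterial homologues. Of these, Mrps24 and Mrps5 had log2 fold changes of −0.28 and −0.18 with separate groups, and Mrps16 had 0.01.

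Mrps12, Mrps14, Mrps11 and Mrps7 were listed together, and 0 of these 4 members had separate groups. Over all members 48.7% had separate groups with cKO lower, and over all genes tested 21.4%. Mrps14, Mrps11 and Mrps7 had log2 fold changes of −0.41, −0.37 and −0.31. For Mrps11 the overlap was very small, with cKO array 1 at 1.3786 and control array 1 at 1.3781. For Mrps7 it was small too, with cKO array 1 at 2.4047 and control array 2 at 2.4013. Mrps14 and Mrps12 overlapped by more. With so few genes and such near ties, the count does not tell this list from others. Mrps12 lies at the decoding centre, where codon and anticodon meet, and is the homologue of the bacterial streptomycin target. It had 0.02, at 3.93, 3.69 and 3.27 in cKO and at 3.45, 3.45 and 3.92 in control.

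Of a further 8 listed small subunit members, 7 lay below 0 (87.5%), against 85.5% of all members and 55.0% of all genes tested. The groups were separate with cKO lower for 5 of them (62.5%), against 48.7% and 21.4%. Mrps28 was at 3.22, 3.09 and 2.57 in cKO and at 3.42, 3.35 and 3.49 in control (log2 fold change −0.46, SE 0.19, adjusted p = 0.214 in limma). Mrps22, mutated in inherited mitochondrial disease, was at 1.73, 1.48 and 1.06 in cKO and at 1.89, 1.87 and 1.85 in control (log2 fold change −0.45, SE 0.18, adjusted p = 0.212 in limma). Mrps26, Mrps34 and Mrps31 had log2 fold changes of −0.33, −0.31 and −0.13 with separate groups. Mrps27, Mrps23 and Mrps35 had −0.08, −0.04 and 0.04. The homologues of bacterial S18, Mrps18a, Mrps18b and Mrps18c, had −0.32, −0.41 and −0.16, with separate groups for Mrps18a alone.

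Among the members with higher values in cKO, Mrpl14 was at 5.29, 5.54 and 5.52 in cKO and at 5.24, 5.34 and 5.16 in control (log2 fold change 0.20, SE 0.12, adjusted p = 0.332). Mrpl9 was at 0.60, 0.62 and 1.04 in cKO and at 0.54, 0.53 and 0.63 in control, so that cKO array 3 made most of its log2 fold change of 0.19. Both had overlapping groups. Mrpl32, Mrpl4 and Mrpl1 lay between 0.06 and 0.07, each within its standard error.

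Genes of the cytosolic ribosome, picked by Rpl and Rps symbols, were evenly split over all arrays, and those of the respiratory chain lay lower as the members did. Of 80 tested cytosolic genes, 40 lay above and 40 below 0, with a median of −0.005, and the groups did not overlap for 5 with cKO lower (6.25%, against 21.4% of all genes tested). Within the slide that held both groups the cytosolic split was not even, with 57 above and 23 below 0 and a median of 0.05. Of 81 tested respiratory chain genes, 67 lay below 0, with a median of −0.16, and the groups did not overlap for 36 with cKO lower (44.4%). Within the shared slide 61 of them lay below 0, with a median of −0.13. On cKO array 3 the mean deviation was 0.06 for the cytosolic list, −0.19 for the respiratory chain and −0.33 for the mitochondrial ribosome. No test of the difference between the lists was made. Cox7c, a subunit of cytochrome c oxidase, was the single gene of these lists past the adjusted threshold (log2 fold change −2.23, adjusted p = 0.0444 in limma).

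**Figure D4:**
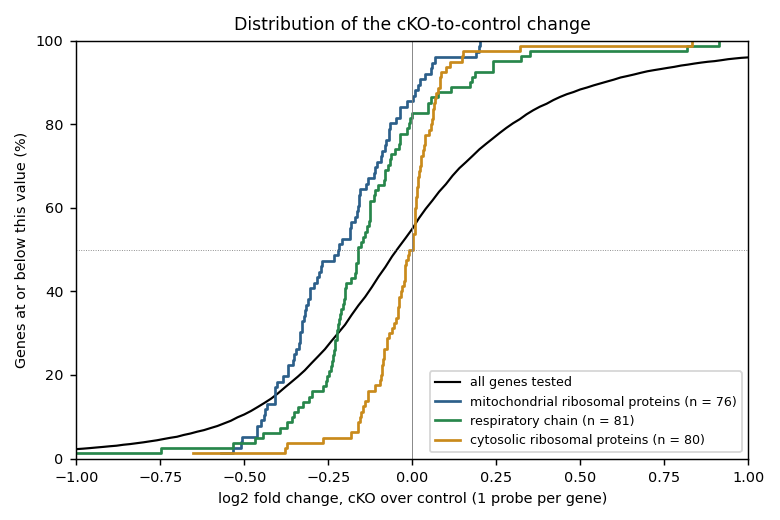
Cumulative distribution of the log2 fold change, cKO over control, as the percent of genes (y axis) at or below a value (x axis, cropped at −1 and 1), for all genes tested (black) and the lists of 76 mitochondrial ribosomal (blue), 81 respiratory chain (green) and 80 cytosolic ribosomal genes (ochre). The blue and green curves cross the middle at −0.22 and −0.16, and the ochre curve at −0.005.

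Most genes lay lower too in each of 6 other lists, which cover mitochondrial protein synthesis, mitochondrial DNA and nuclear regulators of mitochondrial genes. The lists and the number of their members with an unadjusted p under 0.05 in limma are given by role, and in every one of them 0 members reached that threshold with a higher cKO level and 0 passed the adjusted test. Over all genes tested, 55.0% lay below 0 and 11.5% had such a p with a lower cKO level. Of the 7 tested mitoribosomal proteins with other symbols, 6 lay below 0 and 0 passed the unadjusted threshold. Ptcd3 had a log2 fold change of −0.44 and Mrp63 one of −0.28, both with separate groups, and Dap3, a small subunit GTP-binding protein, one of −0.06.

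Among 23 tested genes of ribosome assembly and ribosomal RNA modification, 18 lay below 0 (78.3%), 4 with an unadjusted p under 0.05 (17.4%), and the median was −0.20. Fastkd2, an RNA-binding protein of the mitochondrial RNA granules, was at −0.47, −0.52 and −1.14 in cKO and at −0.06, −0.08 and −0.04 in control (log2 fold change −0.65, SE 0.20, adjusted p = 0.161). Mterfd1 had −0.60, but was well above background on only 1 cKO and 2 control arrays. Of 19 translation factors, 14 lay below 0 (73.7%), 3 at the unadjusted threshold (15.8%), with a median of −0.21. Qrsl1, a subunit of the glutamyl-tRNA amidotransferase, had −0.40 and Mrrf, the ribosome recycling factor, −0.36, each with separate groups.

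Of 17 mitochondrial aminoacyl-tRNA synthetases, which charge the organelle's tRNAs, 14 lay below 0 (82.4%), 2 at the unadjusted threshold (11.8%, near the share of all genes), with a median of −0.24. Wars2, the tryptophanyl enzyme, was at −2.26, −2.48 and −2.54 in cKO and at −1.78, −1.85 and −1.66 in control (log2 fold change −0.67, SE 0.12, adjusted p = 0.0923), and cKO array 3 did not stand apart there. Ears2, the glutamyl enzyme, had −0.35 with separate groups.

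Of 9 tested genes of mitochondrial DNA transcription and replication, 8 lay below 0 (88.9%), 3 at the unadjusted threshold (33.3%), with a median of −0.29. Tefm, the transcription elongation factor, had −0.40 and Top1mt, the mitochondrial topoisomerase, −0.47. Tfam, which packages mitochondrial DNA, lay the other way, with separate groups and a log2 fold change of 0.19 (adjusted p = 0.311). Of 10 nuclear regulators of mitochondrial genes, 9 lay below 0 (90.0%), 2 at the unadjusted threshold (20.0%), with a median of −0.30. Gabpb1, the partner of the ETS factor GABPA, was at −0.66, −0.49 and −0.60 in cKO and at −0.33, −0.25 and −0.22 in control (log2 fold change −0.32, SE 0.10, adjusted p = 0.167). Nrf1 was at −0.87, −1.13 and −1.39 in cKO and at −0.79, −0.79 and −0.65 in control (log2 fold change −0.39, SE 0.15, adjusted p = 0.211).

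**Figure D5:**
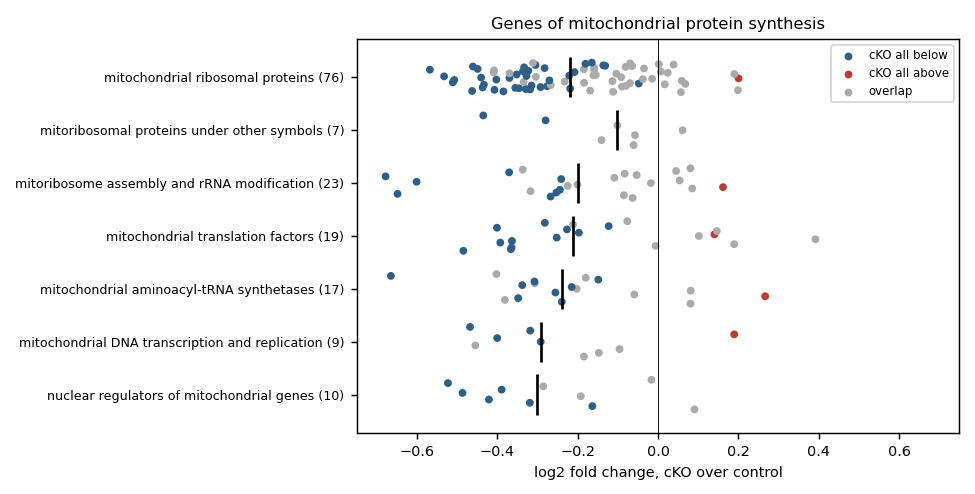
Log2 fold change, cKO over control (x axis), of the tested genes of 7 lists (rows, number of genes in brackets). The lists cover mitochondrial protein synthesis, mitochondrial DNA transcription and replication, and nuclear regulators of mitochondrial genes. Each point is a gene, blue where all cKO levels were under all control levels, red where all were over them and grey where the groups overlap, and black bars are medians, which run from −0.30 for nuclear regulators to −0.10 for mitoribosomal proteins under other symbols.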

How the data were processed

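Gene expression was measured in iTreg cells of 3 cKO and 3 control mice, 1 array each. The authors' scanner files hold linear spot intensities, as deposited, after background subtraction by Agilent Feature Extraction (version 10.7.3.1 in the file headers, 9.1 in the submitters' processing notes). A further table of log2 values deposited by the authors, with column medians of 6.15, was used as an alternative. How it was normalized is not given in the sources used here. All its columns were assigned, leaving 0 unassigned. Probe positions are those of the headers' build mm9.

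Spots marked as outliers (123 to 140 per array) and control spots were dropped, the spots of a probe averaged, and the log2 processed signal taken minus the array's 75th percentile. Probes that stood well above background on 3 or more of the 6 arrays (22281, of which 54 had an adjusted p under 0.05) were compared with limma 3.58.1 in R 4.3.3 (statmod 1.5.0 for robust fits), with Benjamini-Hochberg adjustment over all of them, and each gene was then read at its brightest probe. The methods of the study name a 2-sided Student's test, which was run as an alternative. An exact permutation test of 3 against 3 cannot go below p = 0.10. All 76 members were matched by accession to RefSeq under the same symbol. The steps were run on simulated data with changes far larger than those of the members and with equal spread in both groups. That run does not show how well changes of the members' size are found. Tables and plots were made with Python 3.11.15, pandas 2.3.3, numpy 2.4.6 and matplotlib 3.10.9.

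The members, gene lists and tests were chosen with earlier results of these data known. Genes named are the 6 largest values in each direction, members of role lists, and the 2 of smallest p in each pathway list. The members outside this rule (Mrpl47 for its probes), Dap3, Tfam, Cox7c and the cell markers were named after their values were seen. Alternatives covered normexp background correction (offset 50), quantile or median scaling, the authors' table, filters on dim probes, the methods' test, eBayes with trend and robust fitting, slide or replicate number as a term, array weights, the mean over a gene's probes, subunits by structure, and each array left out, which leaves 2 in its group. Counts of lower members and of separate groups under these were added after seeing the data. Deletion of miR-31 was not checked, as no probe carries its name.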

Additional observations from a re-analysis of the deposited data

How the results depend on the processing

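The median log2 fold change of the members stayed below 0 in every fit run, between −0.42 (normexp with the 75th percentile) and −0.16 (array weights), and between −0.30 and −0.12 with each array left out. Members below 0 numbered 59 to 73 over all fits. With each array left out, the groups of 37 to 53 members did not overlap with cKO lower, against 24.0% to 29.9% of all genes tested, a count that leaving out an array can only raise. The number with an unadjusted p under 0.05 and a lower cKO level was 7 in the reported fit. In the alternatives it is given with the share of all genes tested that had such a p. It reached 15 (12.5%) after normexp and quantile normalization, 1 (2.86%) with normexp and the 75th percentile, 11 (11.6%) with quantile normalization, 1 (8.50%) with the median as the scaling point, 1 (7.31%) without a filter on dim probes, 13 (13.5%) where all arrays had to stand well above background, 15 (13.1%) with trend and robust fitting, 0 (2.69%) with a slide block, 20 (18.3%) with array weights, 14 (11.7%) with the mean over a gene's probes, and 1 to 27 with each array left out, namely 27 (15.2%) without cKO array 1, 12 (11.3%) without cKO array 3 and 1 (5.29% to 8.71%) without each control array. The cause was not tested. The number with a higher level, 0 in the reported fit (12.1% of all genes tested), is given with the same share for that direction. It was 1 (13.3%) after normexp and quantile normalization, 1 (10.1%) with the methods' test and 1 (16.5%) with array weights. It was 2 (11.8%) with the mean over a gene's probes and 0 (8.29% to 14.4%) with each array left out. Array weights, which gave cKO array 3 a weight of 0.17, brought 1 member, Mrpl50, under an adjusted p of 0.05 (adjusted p = 0.0383), and 0 passed in the other fits, leave-one-out fits included. The mean of large minus small subunit genes, −0.004 in the reported fit, was −0.034 with normexp and the 75th percentile, 0.031 with the mean over a gene's probes and −0.013 to 0.002 with each array left out.

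With the replicate number as a block, 2 members had an unadjusted p under 0.05 with a lower cKO level, against 7.45% of all genes tested, and the median stayed at −0.22. Samples of the same number did not deviate together (r = −0.14, 0.01 and −0.19). With so few arrays in each group, these values cannot decide whether the number pairs mice, and the sample labels do not say. Signal over background set no limit for the members, which were all well above it on all 6 arrays.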
